A study of Homo sapiens with 4 samples.

Results

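The miRNAs hsa-miR-103a and hsa-miR-107 are the paralogous guide strands that the pantothenate kinase genes carry in their introns. They were taken by name as 2 of the 1733 mature miRNAs listed for each library, and the rule itself uses no measured value. Small RNA was sequenced from 4 cell populations with 1 library each: the human liver cancer lines Hep3B and Huh7, labelled HCC, and Hep3B-C and Huh7-C, stem-like cells of Hep3B and of Huh7 that are labelled HCSC (hepatic cancer stem cells). No treatment or genetic change is given for any of them. Each population is a single line with no replicate, so that no difference between 2 libraries has a replicate check, and cell state cannot be told apart from other differences between the cultures. The comparison of each HCSC line with its parent line is called the Hep3B pair or the Huh7 pair, and it asks which miRNAs distinguish stem-like cells from the hepatoma cells they came from.

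Guide strands of miRNAs are loaded into Argonaute proteins and pair through their seed, bases 2 to 8, with sites in target mRNAs. Members of the miR-103 family are made from introns of genes for pantothenate kinases, the enzymes that start the synthesis of coenzyme A from vitamin B5, and they are known in liver and fat tissue as regulators of insulin sensitivity through caveolin-1. They are also known to target Dicer, the enzyme that cuts miRNA hairpins. Through their first bases they belong to the wider group of miR-15 and miR-107, whose miR-15 and miR-16 members act on cell cycle genes.

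The mature sequences show how close the members are, and the seed is in capitals (RefSeq, GRCh38.p14, 5′ to 3′).
hsa-miR-103a: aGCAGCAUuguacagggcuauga
hsa-miR-107: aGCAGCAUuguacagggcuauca
Both are 23 nt long and share the first 21 bases and the seed. They differ at 1 base, G22C, counted from 1 at the 5′ end with the base of hsa-miR-103a first. A read that ends before position 22 has the same letters for both, and the reads kept by the authors could be as short as 18 nt. How reads that fit both miRNAs were assigned is not given in the sources used here, so the split of counts between the members is uncertain.

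Hsa-miR-103a can come from either of 2 hairpins and hsa-miR-107 from 1, shown here with the mature strand in capitals.
MIR103A1: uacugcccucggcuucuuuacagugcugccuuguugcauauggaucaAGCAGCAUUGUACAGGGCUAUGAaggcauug
MIR103A2: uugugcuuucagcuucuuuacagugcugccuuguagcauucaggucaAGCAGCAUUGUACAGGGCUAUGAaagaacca
MIR107: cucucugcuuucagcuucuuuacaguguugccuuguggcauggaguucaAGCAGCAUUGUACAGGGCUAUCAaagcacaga
On GRCh38, MIR103A1 lies on the minus strand of chromosome 5 from 168560896 to 168560973, MIR103A2 on the plus strand of chromosome 20 from 3917494 to 3917571, and MIR107 on the minus strand of chromosome 10 from 89592747 to 89592827. In GENCODE release 29 they fall in introns of PANK3, PANK2 and PANK1, each on the strand of its host gene. They lay in an intron of 2 of 3 PANK3 transcripts, 8 of 12 PANK2 transcripts and 3 of 5 PANK1 transcripts, and overlapped an exon of none. The hairpins of MIR103A2 and MIR107 matched at 69 of 81 aligned positions (85.2%), and those of MIR103A1 and MIR103A2 at 63 of 78 (80.8%). Because both MIR103A hairpins give the same mature strand, the counts of hsa-miR-103a do not say from which of them the reads came.

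The 4 libraries held between 1739278 (Hep3B) and 5741567 (Huh7) miRNA counts. These made up 10.4% of all reads in Hep3B and 35.2% in Hep3B-C, against 54.1% in Huh7 and 37.8% in Huh7-C. Levels are therefore given on both scales, as TPM (counts per 1000000 total reads of the library, the scale of the study) and as the share of miRNA counts. A single read was worth between 0.0596 and 0.0941 TPM. Intervals are exact 95% intervals (Poisson for levels, Clopper-Pearson for shares) and cover counting error only. As a check of the liver label, hsa-miR-122, the miRNA typical of hepatocytes, stood at 23.7 TPM in Hep3B and 9708 in Hep3B-C, against 46077 in Huh7 and 13515 in Huh7-C, so this marker was low in the Hep3B library.

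Hsa-miR-103a was among the most abundant miRNAs of every library. It had 47839 counts in Hep3B and 187314 in Hep3B-C, against 55901 in Huh7 and 72465 in Huh7-C, which placed it 9th of 674, 7th of 773, 10th of 712 and 9th of 664 miRNAs with a count. Its level was 2851 TPM in Hep3B (interval 2825 to 2876) and 12131 in Hep3B-C (12077 to 12187), against 5263 in Huh7 (5219 to 5306) and 6763 in Huh7-C (6714 to 6812). Hep3B-C was the highest and Hep3B the lowest on this scale, and no intervals overlapped. As a share of miRNA counts it took 2.75% in Hep3B and 3.45% in Hep3B-C, against 0.974% in Huh7 and 1.79% in Huh7-C. On this second scale both libraries of the Hep3B line were above both libraries of the Huh7 line.

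By the counts given, hsa-miR-107 was a minor species beside its paralog. It had 99 counts in Hep3B and 666 in Hep3B-C, against 161 in Huh7 and 206 in Huh7-C, and stood between the 121st and the 178th place. Its level was 5.90 TPM in Hep3B (interval 4.79 to 7.18) and 43.1 in Hep3B-C (39.9 to 46.5), against 15.2 in Huh7 (12.9 to 17.7) and 19.2 in Huh7-C (16.7 to 22.0). The order of the libraries was that of hsa-miR-103a, but the single intervals of Huh7 and Huh7-C overlapped. As a share of miRNA counts it took 0.00569% in Hep3B (0.00463% to 0.00693%) and 0.0123% in Hep3B-C, against 0.00280% in Huh7 and 0.00509% in Huh7-C (0.00442% to 0.00584%). Here too the order followed hsa-miR-103a, and the neighbours Hep3B and Huh7-C overlapped.

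**Figure D1:**
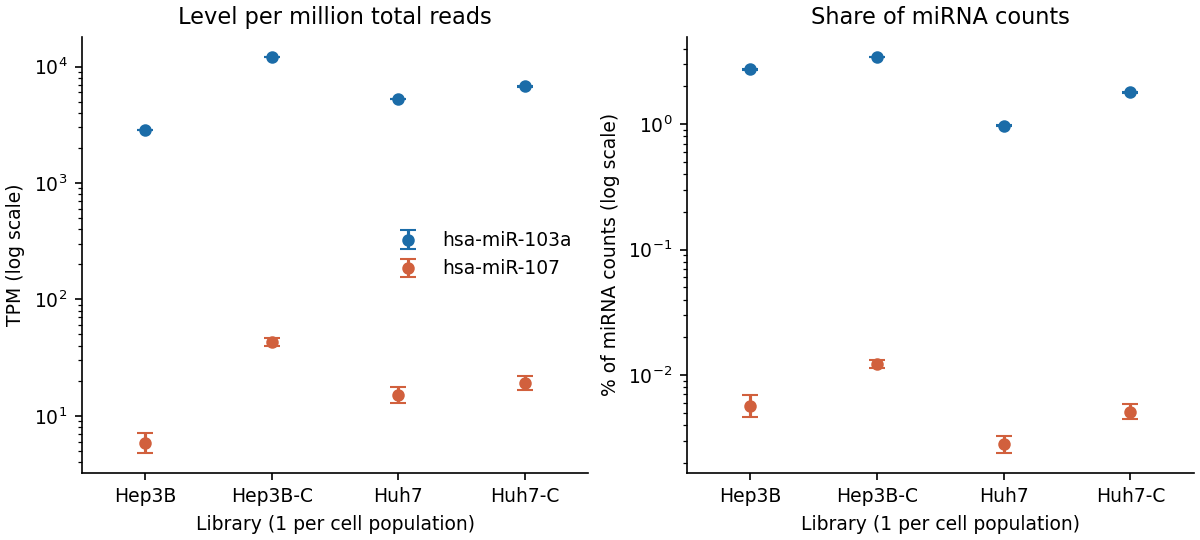
Level of hsa-miR-103a (blue) and hsa-miR-107 (orange) in the 4 libraries, as TPM (left) and as percent of miRNA counts (right), on log axes; points are single libraries and bars exact 95% counting intervals. In each pair the HCSC library sits above its parent line for both members on both scales, while the place of Hep3B relative to the Huh7 libraries differs between the panels.

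In the Hep3B pair both members were higher in the HCSCs. Hsa-miR-103a went from 2851 to 12131 TPM, 4.26-fold or 2.09 in log2 units (exact 95% binomial interval, without replicates, 2.07 to 2.10). Hsa-miR-107 went from 5.90 to 43.1 TPM, 7.31-fold or 2.87 in log2 units (interval 2.56 to 3.19). Both were called by the thresholds of the study, a change of 1 or more log2 units in either direction with an adjusted p no higher than 0.01 (exact Poisson test, Benjamini-Hochberg over all miRNAs tested). For hsa-miR-107 the adjusted p of this exact test was 1.36e-113. This test compares 2 libraries and not 2 conditions. In the same comparison 275 of the 834 miRNAs tested (33%) were called higher and 21 (2.52%) lower, and the median log2 fold-change was 1.42 over the 475 miRNAs that reached 10 counts in at least 1 of the 2 libraries. Relative to that median, the log2 fold-change was 0.67 for hsa-miR-103a and 1.45 for hsa-miR-107, which placed them above 66.9% and 82.1% of these miRNAs. A call of higher was thus common in this pair, and hsa-miR-103a lay nearer to the middle of the distribution than hsa-miR-107.

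With miRNA counts as library sizes the difference of hsa-miR-103a in the Hep3B pair was 0.33 in log2 units (interval 0.31 to 0.34), which is under the threshold. That of hsa-miR-107 was 1.11 (interval 0.80 to 1.43; adjusted p = 5.00e-14, exact Poisson test) and was still called, where 44 of 834 miRNAs (5.28%) were called higher and 112 (13.4%) lower. The miRNA share of all reads differed within this pair, 10.4% in Hep3B and 35.2% in Hep3B-C, and the scales differ by the ratio of these shares.

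In the Huh7 pair both members were slightly higher in the HCSCs and neither was called. Hsa-miR-103a went from 5263 to 6763 TPM, 0.36 in log2 units (interval 0.35 to 0.38). Hsa-miR-107 went from 15.2 to 19.2 TPM, 0.34 in log2 units (interval 0.04 to 0.65; adjusted p = 0.0687, exact Poisson test). Most miRNAs were lower in this pair, with a median log2 fold-change of -0.66 over 431 miRNAs of at least 10 counts, 23 of 772 (2.98%) called higher and 132 (17.1%) called lower. Relative to the median, the members were at 1.03 and 1.01 on the log2 scale, above 82.1% and 81.7% of the miRNAs. With miRNA counts as library sizes their log2 fold-changes were 0.88 (interval 0.86 to 0.90) and 0.86 (interval 0.56 to 1.17), still under 1, where 54 miRNAs (6.99%) were called higher and 74 (9.59%) lower. The members were therefore above the middle of the distribution in both pairs, and their direction was the same on both scales.

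**Figure D2:**
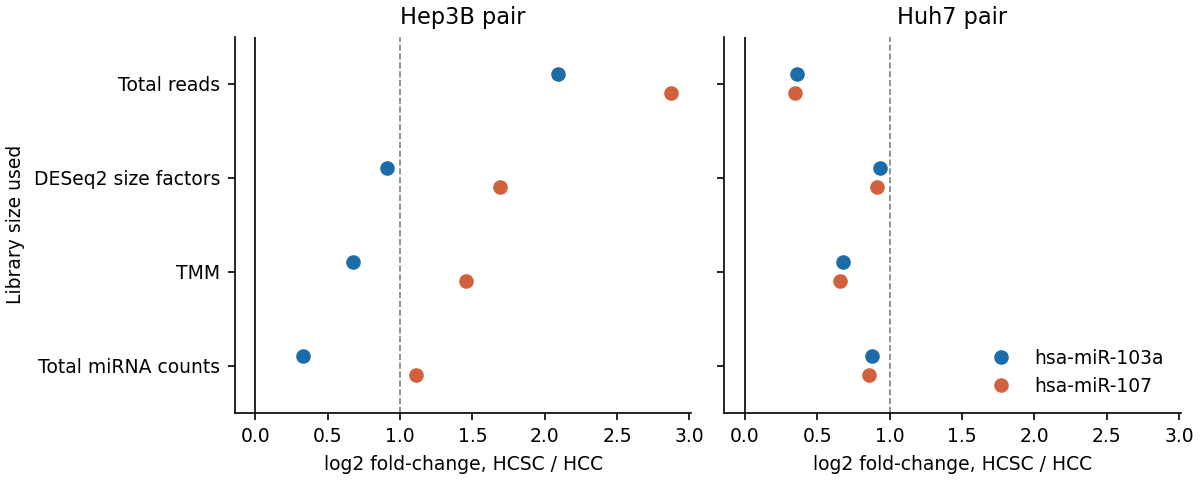
Log2 fold-change of HCSCs over HCC cells for hsa-miR-103a (blue) and hsa-miR-107 (orange) in the Hep3B pair (left) and the Huh7 pair (right), for 4 ways to set the library size; the dashed line marks a log2 fold-change of 1. All points are above 0; in the Hep3B pair hsa-miR-103a ranges from 0.33 to 2.09 and hsa-miR-107 from 1.11 to 2.87, whereas in the Huh7 pair both stay under 1.

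Taking the lines as replicates of a cell state, edgeR's quasi-likelihood test with the parent line as a block gave a log2 fold-change of 0.90 (SE 0.31) for hsa-miR-103a and of 1.28 (SE 0.56) for hsa-miR-107, with the HCSC library higher in 2 of 2 pairs. Neither passed, with an adjusted p of 0.584 for each from edgeR with Benjamini-Hochberg adjustment over 443 miRNAs. The test called 0 miRNAs (0%) higher and 0 lower at an adjusted p of 0.05, where 31 had an unadjusted p under 0.05. DESeq2 called 4 higher and 1 lower, with 19 at an unadjusted p under 0.05 and neither member among the calls. The fit has 1 residual degree of freedom, and its estimated biological coefficient of variation was 0.546.

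Between lines of the same state, the direction depended on the scale for the parent lines. Hsa-miR-103a was higher in Huh7 than in Hep3B by a log2 ratio of 0.88 in TPM (interval 0.87 to 0.90) and lower by the share of miRNA counts, at -1.50 (interval -1.52 to -1.48). Hsa-miR-107 gave 1.36 (interval 0.99 to 1.74) and -1.02 (interval -1.39 to -0.65) in the same comparison. Between the HCSC lines both scales pointed the same way, with Huh7-C below Hep3B-C. The log2 ratio there was -0.84 in TPM and -0.95 in share for hsa-miR-103a, and -1.17 and -1.27 for hsa-miR-107.

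The ratio of the members does not depend on the library size. Hsa-miR-107 made up 0.207% of their summed counts in Hep3B (interval 0.168% to 0.251%) and 0.354% in Hep3B-C (0.328% to 0.382%), against 0.287% in Huh7 (0.245% to 0.335%) and 0.283% in Huh7-C (0.246% to 0.325%). There were thus between 281 and 483 reads of hsa-miR-103a for each read of hsa-miR-107. Its share was lowest in Hep3B and highest in Hep3B-C, and the Huh7 libraries lay between them. The odds of hsa-miR-107 over hsa-miR-103a rose 1.72-fold from Hep3B to Hep3B-C (interval 1.39 to 2.14; adjusted p = 7.43e-07, Fisher's exact test, 2-sided, Benjamini-Hochberg over the 6 pairs of libraries). From Huh7 to Huh7-C the odds ratio was 0.987 (interval 0.799 to 1.22; adjusted p = 0.916, same exact test), an interval that includes 1. The 4 comparisons across lines had adjusted p between 0.0153 and 0.0195 from the same exact test. These tests compare libraries and cover counting error only. They take the split of reads between the members as given, although how reads that fit both were assigned is not stated.

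Other guide strands that differ by 1 base give a rough scale for such a low share. The differing base is at position 22 in the members and between positions 1 and 19 in the other pairs. A read that ends before that base cannot separate a pair, so the pairs are not alike in this respect. Among 60 guide strands in a hand-made list of families with close paralogs, put together after the counts were seen, 10 other pairs differed by 1 base and had at least 1000 summed counts in every library. The share of the miRNA with fewer counts over all libraries ranged in these pairs from 0.148% to 99.8%, and in 0 of them did it stay under 0.354% in all 4 libraries. The lowest shares were in the Huh7 line, at 0.148% in Huh7 and 0.386% in Huh7-C for hsa-miR-99a beside hsa-miR-100, and at 0.216% and 0.297% for hsa-let-7c beside hsa-let-7a. In the Hep3B line the same pairs were far from that level, with hsa-miR-99a at 21.6% in Hep3B and 75.9% in Hep3B-C. Hsa-miR-106a beside hsa-miR-17 had the next lowest maximum, with shares from 0.487% to 1.16%. Whether reads of the abundant member with a miscalled base add to the counts of the rare one was not tested.

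**Figure D3:**
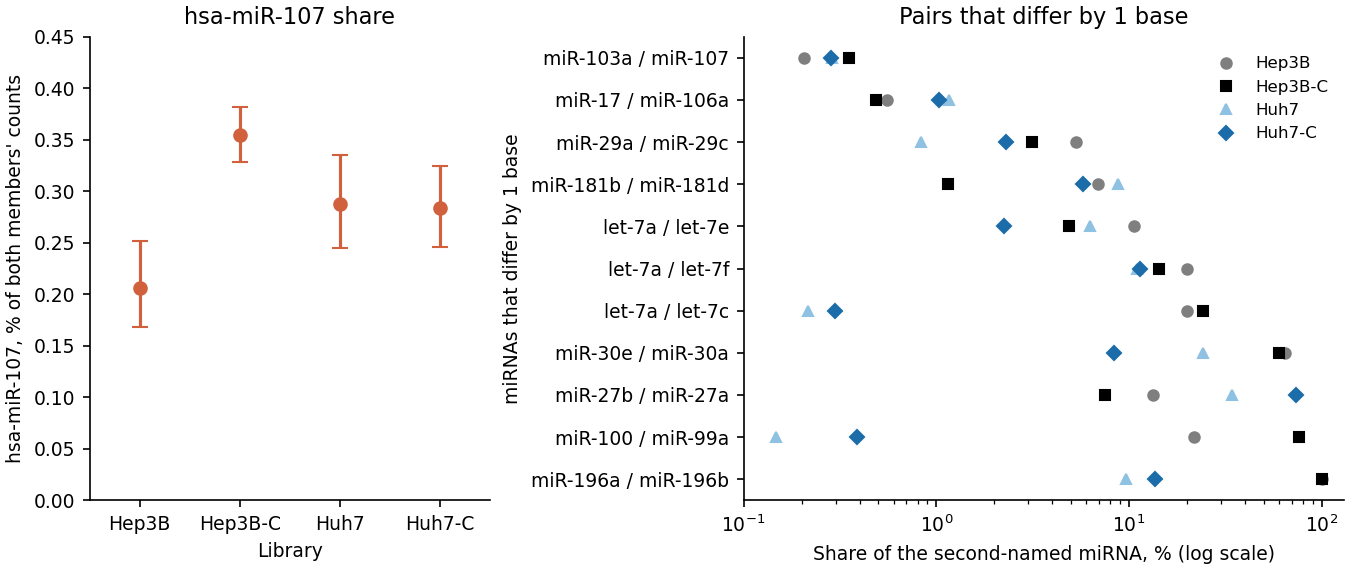
Left, hsa-miR-107 as percent of the summed counts of both members in each library, with 95% Clopper-Pearson intervals, from 0.207% in Hep3B to 0.354% in Hep3B-C. Right, the share of the second-named miRNA in 11 pairs of guide strands that differ by 1 base, on a log axis, with 1 marker per library (some overlap); the miR-103a / miR-107 pair is the only one under 0.4% in all 4 libraries. Its differing base is at position 22, and that of the other pairs at position 19 or earlier.

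Of 4 other products listed for these loci, the 2 with an entry in the files were at or near 0. The passenger strand hsa-miR-103a-2* had 2 counts in Hep3B and 0 in Hep3B-C, against 1 in Huh7 and 0 in Huh7-C. Hsa-miR-103b, which is read from the opposite strand and is the reverse complement of hsa-miR-103a over all 23 nt, had 0 counts in every library. A floor of 3 counts equals 0.179 TPM in Hep3B and 0.282 TPM in Huh7. No fold-change is given for these miRNAs, since all libraries were under the floor of 3 counts.

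The 8 other miRNAs of the miR-15 and miR-107 group share the letters AGCAGC with the members, but 1 base later, so that their seeds differ from the seed of the members. They are shown with the seed in capitals to make the shift visible.
hsa-miR-15a: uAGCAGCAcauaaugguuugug
hsa-miR-15b: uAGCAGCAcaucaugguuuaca
hsa-miR-16: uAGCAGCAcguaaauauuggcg
hsa-miR-195: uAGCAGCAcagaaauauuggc
hsa-miR-424: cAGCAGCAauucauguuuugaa
hsa-miR-497: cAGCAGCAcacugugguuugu
hsa-miR-503: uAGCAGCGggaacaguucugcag
hsa-miR-646: aAGCAGCUgccucugaggc
AGCAGC starts at base 1 in the members and at base 2 in these 8. Starting at base 1, 2 or 3 it is found in 13 of 2370 mature miRNAs in RefSeq (0.549%), and the members' seed GCAGCAU in 2, which are the members.

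Of the 8 others, 7 had counts. With total reads 5 of these had values below 0 in the Huh7 pair, unlike the members, and that contrast was not tested. Values below 0 were usual there, since 126 of 431 miRNAs with at least 10 counts (29.2%) were above 0. Hsa-miR-16, the most abundant of the 8, had 1422 counts in Hep3B and 8258 in Hep3B-C, against 3430 in Huh7 and 2718 in Huh7-C (84.7, 535, 323 and 254 TPM). It was thus below hsa-miR-103a and above hsa-miR-107 in every library. In the Hep3B pair 6 of the 7 tested were called higher and 0 lower, beside 33% and 2.52% of all miRNAs, and hsa-miR-497 (8 and 15 counts) was not called. All 7 reached 10 counts in a library. With p-values adjusted over only the 475 miRNAs that did so, 277 were called higher and 21 lower. The calls of the 7 were adjusted over all miRNAs tested. The median log2 fold-change of the 7 was 1.93, beside 1.42 over all miRNAs with at least 10 counts. Only the median over all miRNAs was computed with 0.5 added to each count. The largest was that of hsa-miR-15b, from 403 to 2506 counts (2.76, interval 2.60 to 2.91). In the Huh7 pair 0 were called higher and 1 lower (2.98% and 17.1% of all miRNAs), hsa-miR-195, from 46 to 21 counts (-1.14, interval -1.96 to -0.37; adjusted p = 6.14e-03 by the exact Poisson test). A median of -0.66 was found for the 7, beside -0.66 over all miRNAs with at least 10 counts. As the 2 medians were computed differently, their equality has no weight. With p-values adjusted over only the 431 miRNAs with at least 10 counts in this pair, 24 were called higher and 137 lower. Hsa-miR-15b, from 284 to 354 counts (0.31, interval 0.08 to 0.54), and hsa-miR-503, from 83 to 105 counts (0.33, interval -0.10 to 0.76), had values near those of the members. Hsa-miR-15a stood at -0.80, hsa-miR-16 at -0.35 and hsa-miR-424 at -0.69. With miRNA counts as library sizes 0 of the 7 were called in either pair, beside 5.28% of all miRNAs higher and 13.4% lower in the Hep3B pair. For the Huh7 pair these shares were 6.99% and 9.59%. They include miRNAs of few counts, whereas all 7 reached 10 counts, so they are not a like background for 0 of 7. Hsa-miR-646 had 0 counts in every library.

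**Figure D4:**
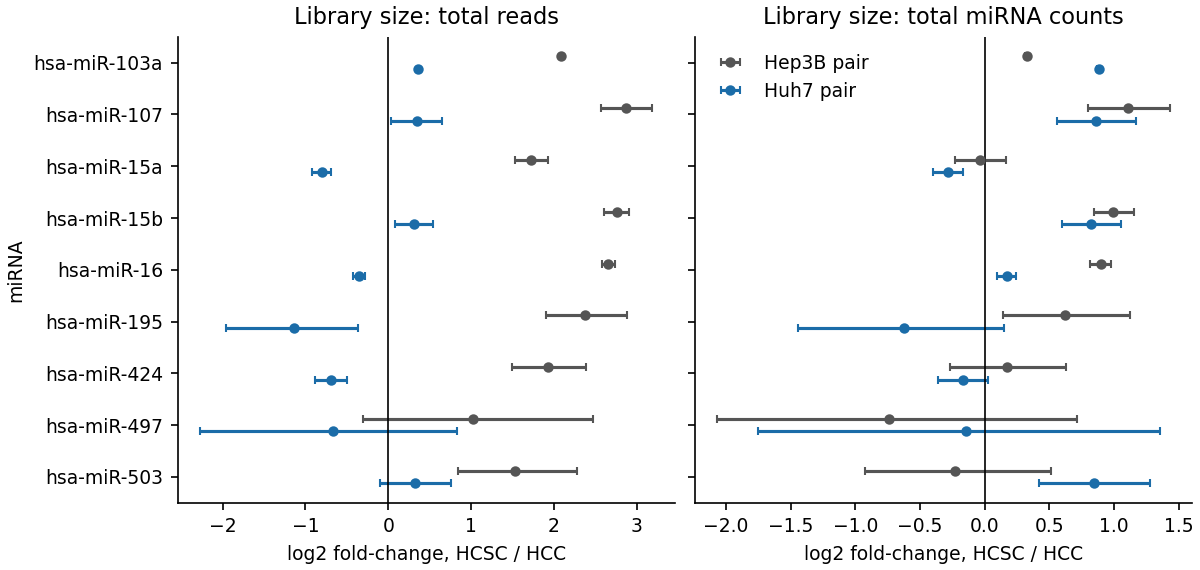
Log2 fold-change of HCSCs over HCC cells for the members and 7 other miRNAs of the miR-15 and miR-107 group in the Hep3B pair (grey) and the Huh7 pair (blue), with total reads (left) or total miRNA counts (right) as library sizes; bars are exact 95% intervals of the counts. With total reads all 9 are above 0 in the Hep3B pair, while in the Huh7 pair only hsa-miR-103a, hsa-miR-107, hsa-miR-15b and hsa-miR-503 are.

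Of 20 miRNAs listed for a known part in lipid, glucose or insulin metabolism, 17 were tested in the Hep3B pair, with 9 called higher and 1 lower, beside 33% and 2.52% of all miRNAs. Of the 17, 16 reached 10 counts. With p-values adjusted over only the 475 miRNAs that did so, 277 were called higher and 21 lower. The calls of the list were adjusted over all miRNAs tested. The median of the 16 was 1.55 in log2 units, beside 1.42 over the 475. Here too the list medians were taken without the 0.5 added for all miRNAs. In the Huh7 pair 15 were tested, with 2 higher and 7 lower, beside 2.98% and 17.1% of all miRNAs. There 13 of the 15 reached 10 counts, with a median of -1.21, beside -0.66. With p-values adjusted over only the 431 miRNAs that did so in this pair, 24 were called higher and 137 lower. The most abundant were hsa-miR-378, which lies in the PPARGC1B gene of mitochondrial metabolism, hsa-miR-148a, which acts on the LDL receptor, and hsa-miR-122. Hsa-miR-148a had differences near those of hsa-miR-103a, with 5678 and 23754 TPM in the Hep3B pair (2.06) and 24145 and 28608 TPM in the Huh7 pair (0.24, not called). Hsa-miR-378 was called higher in both pairs (3.54 and 1.50), as was hsa-miR-375, a regulator of insulin secretion (3.30 and 1.36), and hsa-miR-29c, of a family studied in insulin signalling, was lower in both (-1.48 and -1.21). Hsa-miR-122 (8.68 and -1.77) and hsa-miR-143, known from fat cell differentiation (2.12 and -1.36), were called in opposite directions. With miRNA counts as library sizes, 4 of the list were called higher and 6 lower in the Hep3B pair (5.28% and 13.4% of all miRNAs). In the Huh7 pair 3 were higher and 5 lower (6.99% and 9.59%). These shares include miRNAs of few counts, whereas most of the list reached 10 counts, so they are not a like background for it. On the miRNA count scale hsa-miR-143 was called in neither pair (0.36 and -0.84) and hsa-miR-29c was not called in the Huh7 pair (-0.69). Hsa-miR-122 was still called in opposite directions there (6.92 and -1.25). The list as a whole therefore did not move in 1 direction with the members.

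Likeness of pattern was measured as the root mean square difference between log2 TPM profiles, each centred over the 4 libraries, among 130 miRNAs with at least 100 counts in every library. The library size cancels in this measure. The nearest to hsa-miR-103a were hsa-miR-548b-5p (0.19), hsa-miR-25 (0.20), hsa-miR-340 (0.29), hsa-miR-182 (0.32) and hsa-miR-196b (0.33). Hsa-miR-107, with 99 counts in Hep3B, was under the minimum and could not enter this list. Its difference from hsa-miR-103a was 0.28, smaller than that of hsa-miR-340. Those nearest to hsa-miR-107 were hsa-miR-548b-5p (0.11), hsa-miR-103a itself (0.28), hsa-miR-16 (0.30), hsa-miR-25 (0.36) and hsa-miR-182 (0.41). Hsa-miR-548b-5p had a level near that of hsa-miR-107, with 103 counts in Hep3B and 571 in Hep3B-C, against 157 in Huh7 and 184 in Huh7-C. The members were near neighbours of each other, but how reads that fit both were assigned is not given. Whether reads of hsa-miR-103a counted as hsa-miR-107 add to this likeness was not tested. In TPM hsa-miR-107 had the wider range, 2.87 against 2.09 on the log2 scale between its highest and lowest library. This range depends on the library size. As a share of miRNA counts both members were lowest in Huh7 and not in Hep3B. With 4 libraries the likeness of pattern is a description only.

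**Figure D5:**
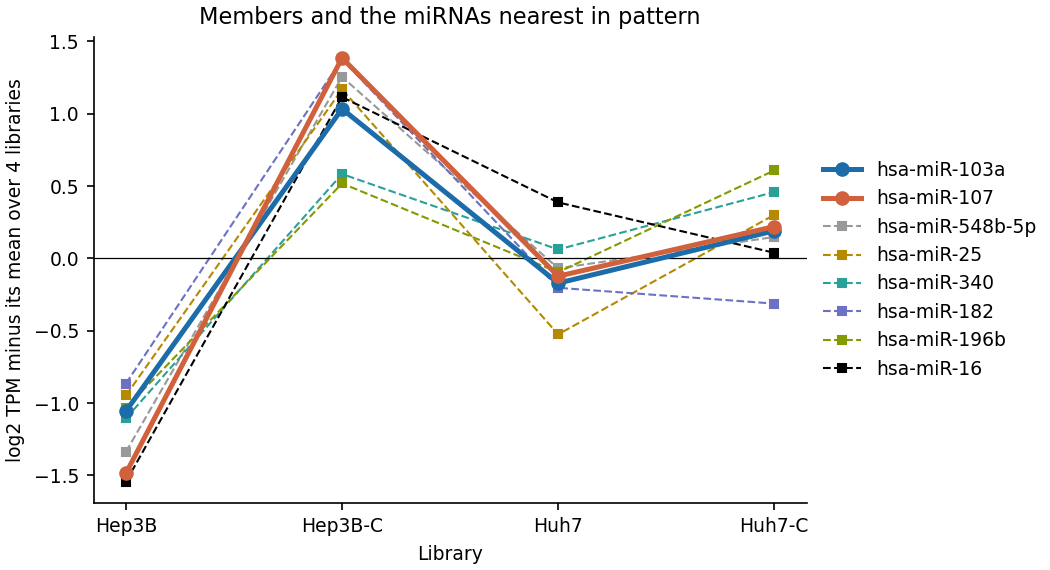
Log2 TPM of hsa-miR-103a and hsa-miR-107 (thick lines) and of the miRNAs nearest to them in pattern (dashed), each minus its mean over the 4 libraries. All have their lowest value in Hep3B; the members peak in Hep3B-C, at 1.03 and 1.39, and lie between -0.17 and 0.22 in both Huh7 libraries.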

How the data were processed

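Small RNA libraries of 4 cell populations, 1 per group, were analysed. The counts rest on miRBase release 17, to which the authors assigned reads of 18 nt or more. Their SOAP alignment used NCBI Build 36.1, and contaminants, redundant reads and other small RNA classes did not enter. The deposited values are raw read counts per mature miRNA, without normalization.

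TPM was computed with the total reads that the study gives for each library. Each pair was tested, for every miRNA counted in it, by an exact Poisson test (Audic and Claverie, 2-sided), whose upper tail included the observed count. A TPM of 0 was set to 0.001 for fold-changes. Medians over all miRNAs used counts plus 0.5, and medians of the lists used counts without it. The fit over both lines used edgeR 4.0.16 with TMM, keeping miRNAs that reached 10 counts in 2 or more libraries. The pairing came from the parent line named in the labels; deviations from the state means had a Pearson r of 0.83 across 443 miRNAs, which are not independent replicates. DESeq2 1.42.0, other library sizes and filters, and each library left out in turn were the alternatives. Both tests were run on simulated data, the pair test with counting noise only. For the fit over both lines the simulated variation was smaller than estimated here, and the changes were larger than those of the members. These runs therefore do not show how the tests perform on data like these. Python 3.11.15, scipy 1.17.1 and R 4.3.3 were used.

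Named were the members, their hairpin relatives, the miR-15 and miR-107 group, the 3 most abundant metabolic miRNAs and those called in both pairs, and the 5 nearest in pattern to each member. The pairs that differ by 1 base were added after the counts were seen. Members and lists were chosen with earlier results of these data known. Sequences come from RefSeq (GRCh38.p14), matched by current strand names, and gene models from GENCODE release 29. No coordinates were converted.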

Additional observations from a re-analysis of the deposited data

Results flagged for a closer look

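With total reads as library sizes, 8 of the named miRNAs moved in opposite directions in the Hep3B and Huh7 pairs, and with 1 library per group this contrast of the lines was not tested. In the miR-15 and miR-107 group these were hsa-miR-15a (log2 fold-change 1.73 and -0.80), hsa-miR-16 (2.66 and -0.35), hsa-miR-195 (2.38 and -1.14), hsa-miR-424 (1.93 and -0.69) and hsa-miR-497 (1.03 and -0.66, at most 15 counts in a library). With miRNA counts as library sizes, hsa-miR-195 (0.62 and -0.63) and hsa-miR-424 (0.17 and -0.17) still had opposite signs, whereas hsa-miR-15a (-0.04 and -0.28), hsa-miR-16 (0.90 and 0.17) and hsa-miR-497 (-0.74 and -0.15) did not. Of the metabolic miRNAs, hsa-miR-122 (8.68 and -1.77) and hsa-miR-143 (2.12 and -1.36) had opposite signs with total reads, and with miRNA counts they stood at 6.92 and -1.25 and at 0.36 and -0.84, the latter called in neither pair. Of those nearest in pattern, hsa-miR-182 had opposite signs with total reads (2.24 and -0.11) but not with miRNA counts (0.48 and 0.41). Neither hsa-miR-103a nor hsa-miR-107 was among the 8. Of miRNAs with at least 10 counts, 419 of 475 (88.2%) had values above 0 for Hep3B-C over Hep3B with total reads. For Huh7-C over Huh7 only 126 of 431 (29.2%) did. Opposite signs were thus not unusual with these library sizes. How many of all miRNAs had them was not counted, so the 8 are not shown to stand out.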

How the results depend on the processing

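The call of hsa-miR-103a in the Hep3B pair was lost with DESeq2 size factors (log2 fold-change 0.91), TMM (0.68) and total miRNA counts (0.33), and hsa-miR-107 kept its call there. When a biological coefficient of variation of 0.4 was assumed, both calls of this pair were lost (2.09, adjusted p 0.106, and 2.87, adjusted p 0.0272, edgeR). In the Huh7 pair neither member was called under any alternative run, and their log2 fold-changes ranged from 0.32 to 0.93. All member values stayed above 0. Of all miRNAs, 275 were called higher and 21 lower in Hep3B-C. These became 44 and 112 with total miRNA counts, 71 and 76 with TMM, 92 and 59 with DESeq2 size factors, and 25 and 0 with the assumed variation. In Huh7-C, 23 higher and 132 lower became 54 and 74 with total miRNA counts, 57 and 71 with DESeq2 size factors, and 5 and 10 with the assumed variation, and TMM gave 38 higher. An upper tail without the observed count, chosen after seeing the data, gave 284 higher in Hep3B-C. Over both lines, total miRNA counts gave 4 higher and 4 lower in edgeR, and DESeq2 4 and 1, where the main test gave 0 and 0. Without the replicate block 0 miRNAs were called in edgeR. The fits without any 1 library also had no block, and the lone library of a state was assumed to vary like the others. In these fits hsa-miR-103a ranged from 0.58 to 1.17, values in which cell line and state are mixed. Summing the members left 2.09 in the Hep3B pair. Of the 5 miRNAs nearest to hsa-miR-103a, 3 remained at a minimum of 1000 counts. Depth limits hsa-miR-107, with 99 counts in Hep3B, more than hsa-miR-103a, with 47839.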
